A study of Mus musculus with 4 samples.

Results

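Macrophages and their blood precursors were followed in postnatal hearts through 40 gene symbols of myeloid identity, of which 37 had a row in the authors' deposited table of 36814 rows. A row was taken when its symbol equalled a listed symbol, and no listed symbol was repeated. The remaining 3 symbols, Spi1, Adgre4 and Cxcl4, had no row of that name. Cxcl4 is another name of Pf4, which is listed already. The rows of the older names were kept apart from the 37: Sfpi1, the myeloid lineage factor PU.1, was listed at 0.996 (control) and 1.77 (mutant) RPKM, and Emr4 at 0.162 and 0.0515 RPKM. All 37 rows were among the 24454 that carried an adjusted p.

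RNA came from the ventricles of mice at postnatal day 14, 2 wild type animals and 2 Hnrnpu mutants, with 1 male and 1 female in each group on a C57BL/6 & 129 S4 mix. The mutants joined a conditional Hnrnpu allele with Ckmm-Cre, a transgene read from the muscle creatine kinase promoter, which is active in heart and skeletal muscle cells. Whether the wild type animals carried the conditional allele or the transgene, and whether any animals were littermates, is not given in the sources used here. The table gives 1 RPKM value per group (reads per length of transcript, relative to all reads mapped), so no level below has a spread, overlap between animals cannot be seen, and the deposited p-values measure only the spread between these animals as the authors fitted it. Hnrnpu itself was listed at 32.7 (control) and 15.2 (mutant) RPKM, with p = 0.0613 and adjusted p = 0.438 in the authors' deposited table. Deposited values of small RNA genes step by the worth of 1 read, and by these steps 1 read weighed 2.4 times as much in the control group as in the mutant group, so low levels were counted from fewer reads in control. Read numbers below are RPKM multiplied by transcript length in a later annotation and divided by that step, and are approximate.

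The heart holds macrophages seeded before birth, which renew in place, and others that arise from blood monocytes. Resident cells are known for the clearance receptors Timd4, Mertk, Cd163 and Mrc1 (CD206), whereas monocytes enter tissue through the receptor Ccr2 after its ligands Ccl2 and Ccl7. Macrophages depend on Csf1r, which binds the growth factors Csf1 and Il34, and take up coated particles through Fc receptors that signal with the ITAM adaptors Fcer1g and Tyrobp.

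Most of the 37 myeloid genes stood above control in the mutant ventricles, and 3 of the 37 passed the test. The macrophage genes Csf1r, Cd68 and Emr1 and the adaptor Fcer1g were above 1 RPKM in both groups, whereas Itgam and Aif1 were below it in both. Lyz2, Fcgr3 and Laptm5 rose 4.93-fold, 4.65-fold and 3.37-fold. They were 3 of 37 genes, or 8.11%, called higher at an adjusted p below 0.05 in the authors' deposited table, where 2.03% of all tested rows were called higher. None of the 37 was called lower, where 1.48% of all tested rows were. At an unadjusted p below 0.05 in the authors' deposited table, 7 were higher and 1 was lower, against 1564 and 1515 of all tested rows. Mutant levels were above control for 28 of the 37 genes (75.7%), as for 52.8% of all tested rows and 54.6% of the 11292 rows with a mean of at least 1 RPKM. After scaling to the summed RPKM of protein coding rows, which shifts every log2 value down by 0.27, 24 of the 37 were above control. The share over all rows under that scaling is not given here, so this count cannot be set against 52.8% or 54.6%. The median log2 fold change was 0.73 over the 36 genes above 0 in both groups, and -0.03 over the 20922 such rows of the table. These are bulk samples, in which more cells of a type and more RNA per cell cannot be told apart.

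**Figure D1:**
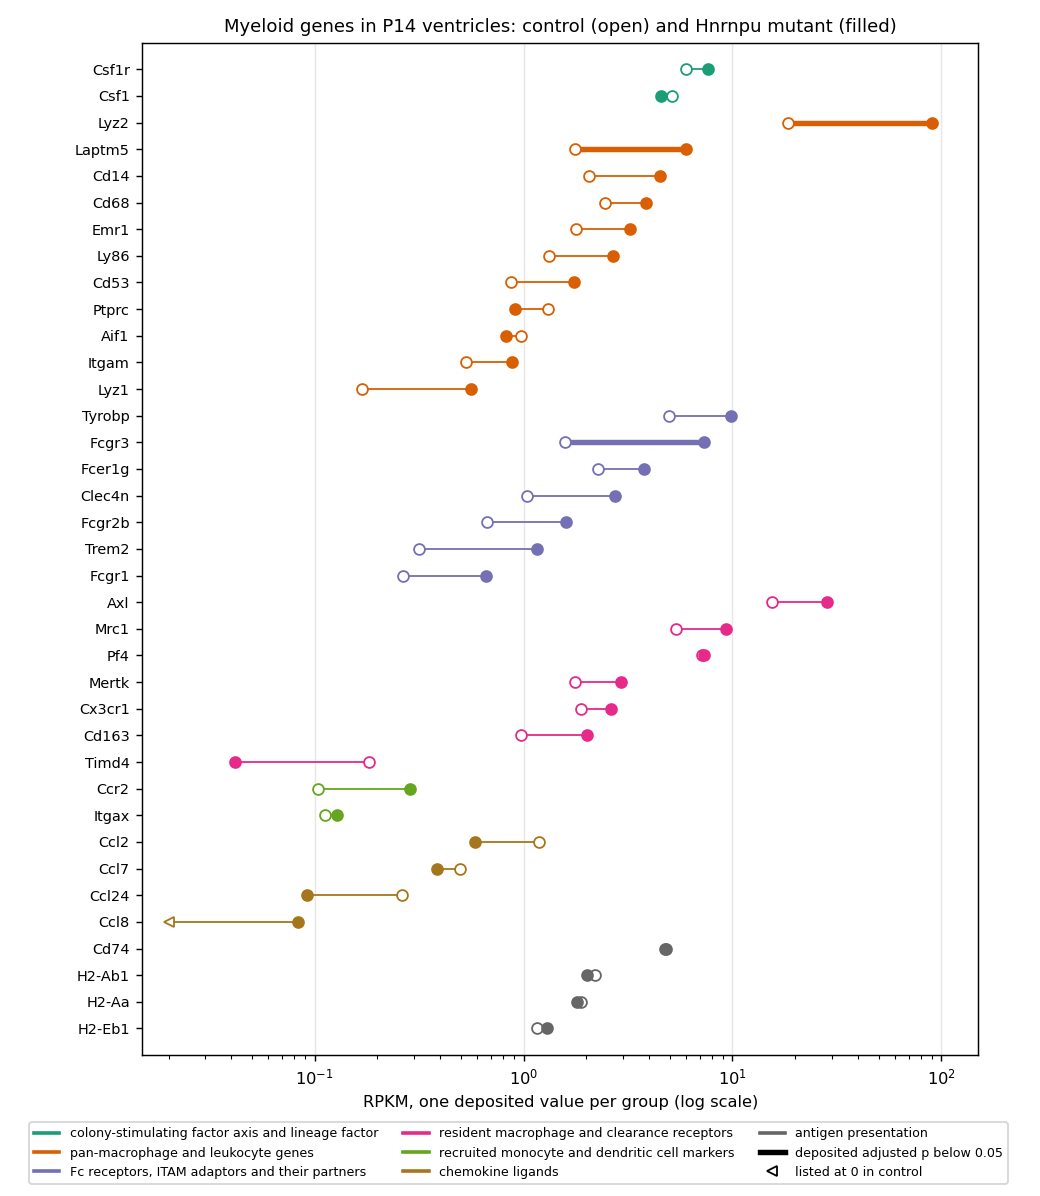
RPKM (horizontal axis, log scale) of each of the 37 myeloid genes in control (open circles) and mutant (filled circles) ventricles, 1 deposited value per group, coloured by role; thick lines join the groups for the 3 genes with an adjusted p below 0.05, and Ccl8 was listed at 0 in control. Lyz2, at 18.4 and 90.5 RPKM, lies to the right of the other genes in both groups, and the filled point lies on the left for 9 genes, by the widest margin for Timd4.

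Lyz2 codes for lysozyme M, a granule enzyme of macrophages, monocytes and neutrophils, on chromosome 10, bases 116714390 to 116719377 of the minus strand in mm9. It was listed at 18.4 (control) and 90.5 (mutant) RPKM, about 1302 and 15357 reads. The log2 fold change was 2.30, with an interval of 1.23 to 3.37 at 95% from the error that the deposited p implies, and adjusted p = 0.00209 in the authors' deposited table. Lyz1, the sister gene known from Paneth cells, lies 5.47 kb away on the same strand and was listed at 0.169 and 0.559 RPKM (adjusted p = 0.505 in the authors' deposited table). Transcripts of the pair are identical at 96% of aligned bases, with a longest shared run of 118 bases, and how reads matching both were placed is not given in the sources used here, so the Lyz1 values are uncertain.

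Fcgr3 codes for the activating low-affinity IgG receptor and lies on chromosome 1, bases 172981300 to 172995066 of the minus strand in mm9. Its level was 1.58 (control) and 7.34 (mutant) RPKM, about 114 and 1275 reads, a log2 fold change of 2.22 (interval 1.14 to 3.30) with adjusted p = 0.00392 in the authors' deposited table. Laptm5, a lysosomal membrane protein of blood cells, lies on chromosome 4, bases 130469040 to 130492056 of the plus strand in mm9. It was listed at 1.77 and 5.98 RPKM, about 247 and 2005 reads, a log2 fold change of 1.75 (interval 0.74 to 2.76) with adjusted p = 0.0267 in the authors' deposited table. Fcgr3 lies 7.26 Mb from Hnrnpu. Within 10 Mb of Hnrnpu, 5 of 218 tested rows were called higher and 5 lower (2.29% each), and Fcgr3 was 1 of the 5 higher.

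Trem2, the lipid-sensing receptor that signals through Tyrobp, had the next fold after Lyz2 and Fcgr3 among genes above 0 in both groups and just missed the threshold. It lies on chromosome 17, bases 48485726 to 48493472 of the plus strand in mm9 and was listed at 0.316 and 1.16 RPKM, about 18 and 163 reads. The log2 fold change was 1.88 (interval 0.68 to 3.08) with adjusted p = 0.0549 in the authors' deposited table.

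**Figure D2:**
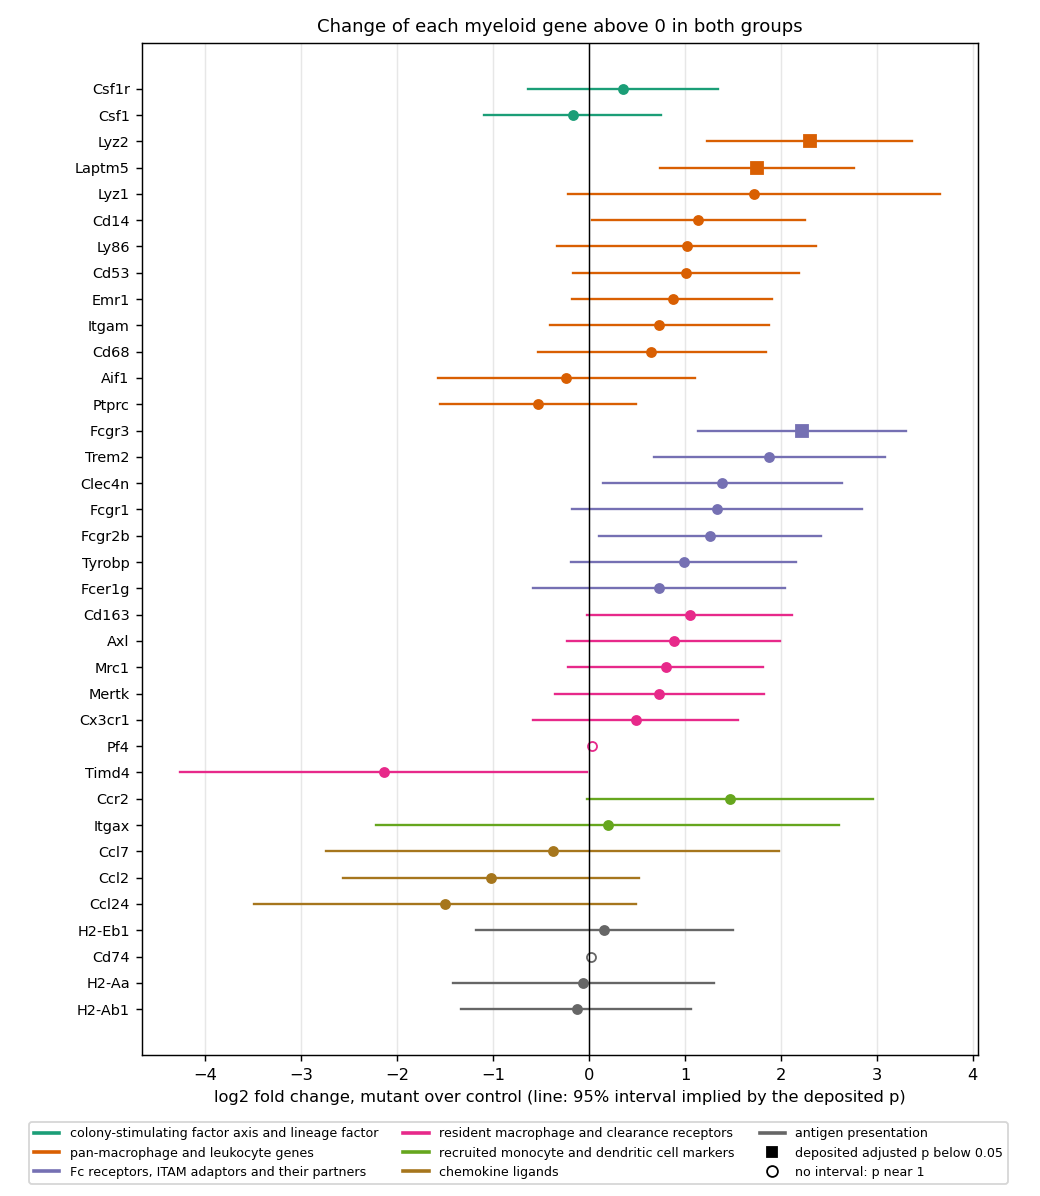
log2 fold change, mutant over control (horizontal axis), of the 36 myeloid genes above 0 in both groups, coloured by role, with lines for the 95% interval implied by the deposited p; squares have an adjusted p below 0.05 and open circles have a p near 1 and no interval. Intervals lie wholly above 0 for the 3 called genes and for 4 others, and wholly below 0 for Timd4.

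The promoters of the 3 genes with the largest folds are shown because macrophage genes are commonly read through PU.1, the factor coded by Sfpi1. They are RefSeq windows of GRCm38.p6 over the 250 bases before the transcript start, and the Lyz2 window was cut to 201 bases where an exon of a GENCODE transcript begins. The Laptm5 window lay mostly inside such an exon and is not printed. Capitals mark GAGGAA or its reverse complement TTCCTC, the core of PU.1-type ETS sequences, searched on both strands as the 1 motif. The windows are chr10:117282322-117282522 for Lyz2 (minus strand), chr1:171059404-171059653 for Fcgr3 (minus strand) and chr17:48346151-48346400 for Trem2 (plus strand).
Lyz2: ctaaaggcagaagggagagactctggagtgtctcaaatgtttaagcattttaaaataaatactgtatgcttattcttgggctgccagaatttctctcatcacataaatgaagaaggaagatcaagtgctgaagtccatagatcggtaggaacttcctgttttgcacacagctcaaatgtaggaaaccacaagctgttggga
Fcgr3: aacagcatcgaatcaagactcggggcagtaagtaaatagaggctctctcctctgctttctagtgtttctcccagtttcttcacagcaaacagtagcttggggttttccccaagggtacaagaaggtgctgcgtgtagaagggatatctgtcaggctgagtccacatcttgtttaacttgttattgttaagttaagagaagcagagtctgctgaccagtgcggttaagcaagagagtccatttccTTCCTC
Trem2: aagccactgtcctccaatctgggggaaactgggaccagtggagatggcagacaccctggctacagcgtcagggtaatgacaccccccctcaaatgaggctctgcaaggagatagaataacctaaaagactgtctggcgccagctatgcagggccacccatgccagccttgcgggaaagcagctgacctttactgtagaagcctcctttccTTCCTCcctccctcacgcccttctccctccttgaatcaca
The Fcgr3 and Trem2 windows each hold 1 match, and the Lyz2 window holds none of these letters. Of 27 of the 37 genes with a promoter of 250 bases in the table, 13 held the motif (48.1%), as did 6252 of 27025 promoters of that length (23.1%). These shares took the first listed promoter of each gene without cutting exons. The windows shown were made otherwise, from the listed start nearest the GENCODE gene start and with exon bases cut. A match describes the letters only, and binding was not measured.

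Neither gene of the growth factor axis among the 37 was called. Csf1r, the receptor of all macrophages, was listed at 6.01 (control) and 7.67 (mutant) RPKM (log2 0.35, interval -0.64 to 1.34). Its row overlaps that of the opposite strand gene Hmgxb3 over 871 bases, which was listed at 7.66 and 3.40 RPKM, and whether counting used strand is not given in the sources used here. Csf1, the ligand made by stromal cells, was listed at 5.11 and 4.53 RPKM (log2 -0.17, interval -1.10 to 0.75). Among 9 other growth factors and receptors, none was called higher and Kit, the stem cell factor receptor of progenitors and mast cells, fell from 1.81 to 0.424 RPKM (adjusted p = 0.0102 in the authors' deposited table). Il34, the second ligand of Csf1r, was listed at 0.846 and 2.94 RPKM with adjusted p = 0.0758 in the authors' deposited table, so that its level per unit of Csf1 was 0.166 in control and 0.649 in mutant. Csf2ra, a subunit of the GM-CSF receptor, was listed at 8.80 and 6.52 RPKM.

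All 7 Fc receptor and ITAM genes stood above control, with 1 called and 4 (Fcgr3, Trem2, Clec4n and Fcgr2b) at an unadjusted p below 0.05 in the authors' deposited table. Their log2 fold changes ran from 0.73 to 2.22 with a median of 1.33. Besides Fcgr3 and Trem2, Clec4n (Dectin-2, a receptor for fungal mannans) was listed at 1.04 and 2.73 RPKM, Fcgr2b (the inhibitory IgG receptor) at 0.667 and 1.59 RPKM, and Fcgr1 (the high-affinity IgG receptor) at 0.264 and 0.665 RPKM. Of the adaptors, Tyrobp was listed at 4.99 and 9.88 RPKM and Fcer1g at 2.27 and 3.76 RPKM, with adjusted p = 0.546 and 0.815 in the authors' deposited table. Activating Fcgr3 stood at 2.37 times inhibitory Fcgr2b in control and at 4.62 times in mutant, a difference that was not tested. Fcgr2b and Fcgr3 transcripts share 85.2% of aligned bases and a run of 129 bases, so reads from that run could be split between them.

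Of the 11 genes shared by macrophages and other leukocytes, 9 stood above control and 2 below, with Lyz2 and Laptm5 called. Their summed level was 31.6 (control) and 116 (mutant) RPKM, most of it Lyz2. Emr1 (F4/80) was listed at 1.79 and 3.25 RPKM, Cd68 at 2.46 and 3.87 RPKM, and Itgam (CD11b) at 0.528 and 0.878 RPKM. Cd14, a receptor for endotoxin, was listed at 2.05 and 4.52 RPKM, with p = 0.044 and adjusted p = 0.373 in the authors' deposited table. Ly86 (MD-1) was listed at 1.32 and 2.67 RPKM and Cd53, a tetraspanin of leukocytes, at 0.868 and 1.75 RPKM. The 2 below control were Ptprc (CD45, on all leukocytes), at 1.31 and 0.906 RPKM, and Aif1 (Iba1), at 0.976 and 0.826 RPKM, with log2 intervals of -1.55 to 0.49 and -1.58 to 1.10. The ratio of mutant to control was 1.27 for Csf1r, 1.82 for Emr1 and 4.93 for Lyz2. The log2 intervals of Csf1r and Lyz2, -0.64 to 1.34 and 1.23 to 3.37, overlap at their ends. Such overlap does not decide whether these genes differ in fold, which was not tested.

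Setting resident against recruited markers, 6 of the 7 resident and clearance receptor genes stood above control and none was called, while Timd4 stood below and Ccr2 above control. Axl, a receptor for apoptotic cells also found on stromal and vascular cells, was listed at 15.5 (control) and 28.4 (mutant) RPKM. Mrc1, the mannose receptor, was listed at 5.36 and 9.32 RPKM, Mertk, the partner of Axl in clearance, at 1.76 and 2.93 RPKM, and Cd163, the haemoglobin scavenger receptor, at 0.977 and 2.02 RPKM. Cx3cr1, the fractalkine receptor, was listed at 1.88 and 2.63 RPKM. None of these 5 was called, and their adjusted p-values ran from 0.409 (Cd163) to 0.915 (Cx3cr1) in the authors' deposited table. Pf4 was listed at 7.17 and 7.33 RPKM, a log2 fold change of 0.03 that turned to -0.05 and -0.24 under the median and protein coding scalings. Pf4 is also a platelet gene, and 6 of 7 platelet genes, Pf4 among them, stood above control with a median log2 fold change of 0.42 and none called. Their part in the Pf4 values was not tested.

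Timd4, a phosphatidylserine receptor of long-lived resident macrophages, lies on chromosome 11, bases 46624302 to 46657834 of the plus strand in mm9. It was listed at 0.183 (control) and 0.0414 (mutant) RPKM, about 21 and 12 reads. The log2 fold change was -2.14 (interval -4.26 to -0.02), with p = 0.0482 and adjusted p = 0.389 in the authors' deposited table. Ccr2, on chromosome 9, bases 124016689 to 124028296 of the plus strand in mm9, was listed at 0.104 and 0.287 RPKM, about 32 and 212 reads. The log2 fold change was 1.47 (interval -0.02 to 2.96), with p = 0.0529 and adjusted p = 0.408 in the authors' deposited table. Itgax (CD11c), of dendritic cells and some macrophages, was listed at 0.112 and 0.128 RPKM, a log2 fold change of 0.20 that was -0.07 after protein coding scaling. Per unit of Csf1r, Ccr2 was 0.0173 in control and 0.0374 in mutant, 2.16 times as high. Timd4 was 0.0304 and 0.0054, or 0.177 times as high. By the same measure, the resident genes Cd163, Mrc1 and Cx3cr1 were 1.62, 1.36 and 1.1 times as high in mutant. Pf4 was 0.801 times and Itgax, listed beside Ccr2, 0.896 times as high. None of these ratios was tested. Neither Timd4 nor Ccr2 passed the test, and the difference between them was not tested.

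Wider lists of each origin had the same median in full, 0.80, but not without genes that other cells share, 0.63 (resident) and 0.20 (recruited). The resident list of 15 genes joined the 7 resident and clearance receptor genes to 8 further genes, among them Lyve1, Folr2, Cbr2, F13a1, Gas6 and Vsig4. It had 14 genes above control, a median log2 fold change of 0.80, and summed levels of 76.7 and 132 RPKM. F13a1, the coagulation factor XIII A chain, was its 1 called gene and rose from 3.65 to 11.6 RPKM (log2 1.67, adjusted p = 0.0422 in the authors' deposited table). Gas6, the ligand of Axl and Mertk, was listed at 24.4 and 44.2 RPKM, and Lyve1, named after its value was seen, at 4.70 and 9.37 RPKM with adjusted p = 0.398 in the authors' deposited table. The resident sum rested in part on genes that other cells express too: Axl and Gas6 of stromal cells, Pf4 and F13a1 of platelets, and Lyve1 of lymphatic vessels. Without these 5, a choice made after seeing the data, the 10 remaining genes summed to 21.2 (control) and 31.4 (mutant) RPKM, with 9 above control, a median of 0.63 and none called. The recruited list of 13 genes had 10 above control, none called and 3 (Chi3l3, Thbs1 and S100a4) at an unadjusted p below 0.05 in the authors' deposited table, and the same median of 0.80. Its sum likewise rested on genes of other cells: Ly6c1, also an endothelial gene, was listed at 40.6 and 50.7 RPKM and Fn1, fibronectin, at 20.4 and 36.9 RPKM. Without Ly6c1, Fn1, Vcan, Thbs1 and S100a4, chosen in the same way, the 8 remaining genes summed to 1.12 (control) and 1.42 (mutant) RPKM, with 5 above control, a median of 0.20 and none at a mean of 1 RPKM. The difference between the lists was not tested, and 1 deposited value per group allows no test of it.

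**Figure D3:**
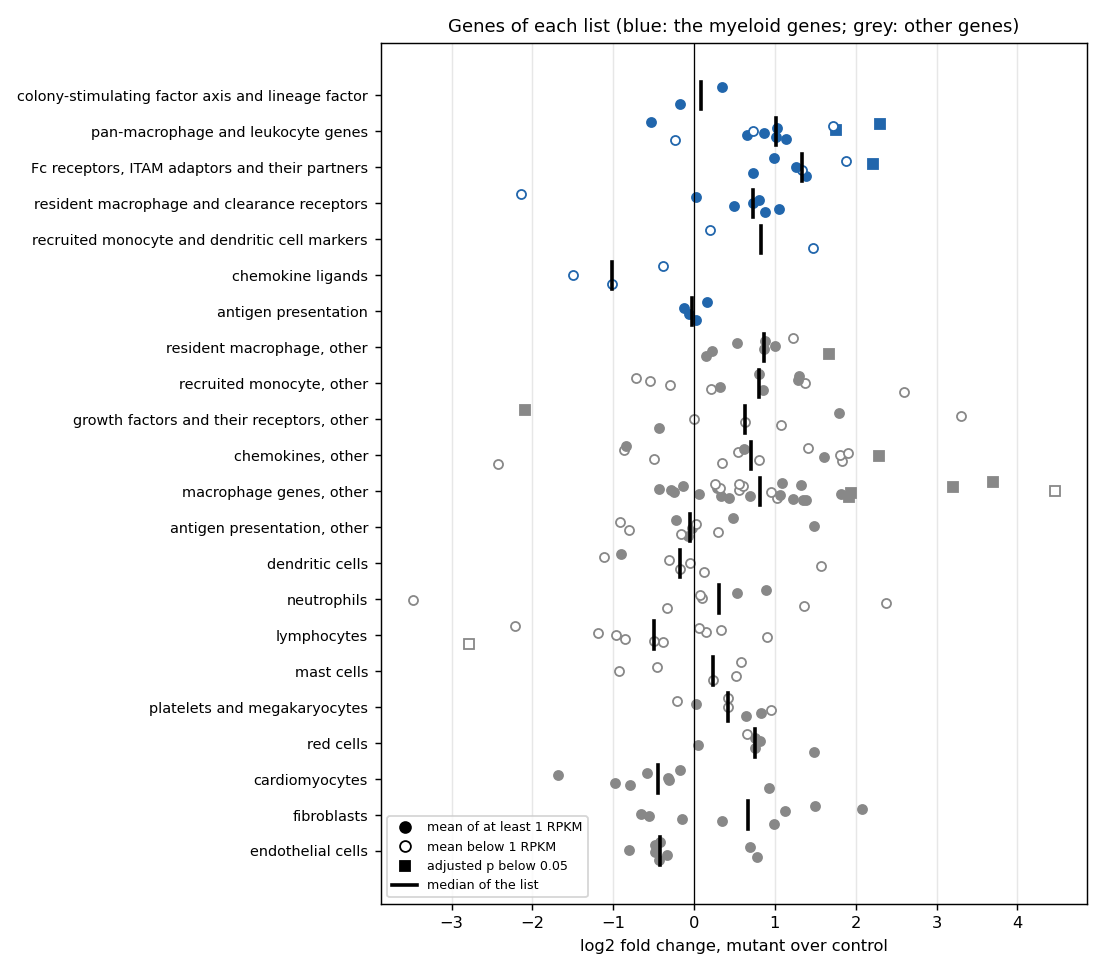
log2 fold change, mutant over control (horizontal axis), of every gene above 0 in both groups in each list, 1 point per gene, with vertical bars for list medians; filled points have a mean of at least 1 RPKM and squares an adjusted p below 0.05. The Fc receptor points all lie right of 0, the antigen presentation points lie close to 0, and the 3 chemokine ligands drawn lie left of 0.

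The chemokine ligands of the list, which call monocytes and eosinophils, were low and not called. Ccl2 was listed at 1.19 (control) and 0.586 (mutant) RPKM, about 52 and 61 reads, with a log2 interval of -2.56 to 0.52. Ccl7 was listed at 0.499 and 0.384 RPKM and Ccl24 at 0.261 and 0.0925 RPKM. Ccl8 was listed at 0 in control and at 0.083 RPKM in mutant, about 5 reads. Of 14 other chemokines and receptors, Ccl9, a ligand made by myeloid cells, was the 1 called and rose from 0.505 to 2.47 RPKM (4.89-fold, adjusted p = 0.00721 in the authors' deposited table). Cxcl12, the stromal retention signal, was listed at 11.0 and 16.9 RPKM and its receptor Cxcr4 at 3.18 and 1.78 RPKM.

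Antigen presentation genes lay near control. Cd74, the invariant chain, was listed at 4.76 and 4.83 RPKM, H2-Aa at 1.88 and 1.80 RPKM, H2-Ab1 at 2.20 and 2.01 RPKM, and H2-Eb1 at 1.16 and 1.3 RPKM. The median log2 fold change of these 4 class II genes was -0.02, and Cd74 turned below 0 under both the median and protein coding scalings and H2-Eb1 under the latter. The intervals of the 3 H2 genes were wide, reaching from -1.42 to 1.3 for H2-Aa, so changes of over 2-fold in either direction lie within them. B cells carry class II too, and a list of 12 lymphocyte genes summed to 3.74 (control) and 1.54 (mutant) RPKM, with 5 genes above control and 7 below. Cd79b, a subunit of the B cell receptor, was listed at 1.11 and 0.485 RPKM. The part of B cells in the class II values was not tested. Among 10 further presentation genes 4 stood above control and none was called. B2m, the class I light chain, was listed at 57.8 and 54.7 RPKM and H2-D1, a class I heavy chain, at 27.1 and 26.8 RPKM.

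A list of 28 other macrophage genes, of lysosomes, lipid handling and transcription, had 24 above control with a median log2 fold change of 0.82. By the authors' deposited table, the test called 5 of them higher and none lower. Gpnmb, a lysosomal glycoprotein of lipid-laden macrophages, rose from 0.0434 to 0.965 RPKM, about 9 and 461 reads. Spp1 (osteopontin) rose from 0.329 to 4.28 RPKM, Lgals3 (galectin-3) from 0.420 to 3.85 RPKM, Ctss (cathepsin S) from 3.17 to 12.2 RPKM, and Cebpa, a myeloid transcription factor also active in fat and liver, from 0.653 to 2.47 RPKM. Adjusted p-values in the authors' deposited table were 1.97e-06 for Gpnmb, 4.41e-06 for Spp1, 8.05e-05 for Lgals3, 0.0144 for Ctss and 0.0367 for Cebpa. The most abundant of the list were Ctsd (cathepsin D), at 69.2 and 244 RPKM with adjusted p = 0.184 in the authors' deposited table, and Lpl (lipoprotein lipase, made by muscle cells too), at 148 and 135 RPKM. The list was drawn with earlier results of these animals known, so its direction is not independent evidence. The samples are bulk ventricle, and which cells the RNA of the 5 called genes came from was not tested.

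Markers of other cells were measured beside these genes. Neutrophils also carry Lyz2 and Fcgr3. Their list of 10 genes had 8 above control, none called and 1 (Mmp8) at an unadjusted p below 0.05 in the authors' deposited table. It summed to 4.80 (control) and 7.66 (mutant) RPKM, led by S100a8 (2.16 and 3.12 RPKM) and S100a9 (1.72 and 3.20 RPKM). Ly6g and Elane, among the 8, were listed at 0 in control and had about 5 and 1 reads in mutant. All 6 red cell genes stood above control, with sums of 177 and 307 RPKM. Their part in the myeloid values was not tested. Fibroblasts also express Axl, Gas6 and Fn1, and their marker genes had 5 of 8 above control (720 and 933 RPKM summed). None of those 8 was called, and 3 (Postn, Tcf21 and Pdgfra) were higher at an unadjusted p below 0.05 in the authors' deposited table. Endothelial genes had 2 of 8 above control (171 and 164 RPKM summed). Cardiomyocyte genes had 1 of 8 above control, Actc1 (cardiac actin), at 2380 and 4530 RPKM, and the sums with it were 8779 and 9151 RPKM.

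**Figure D4:**
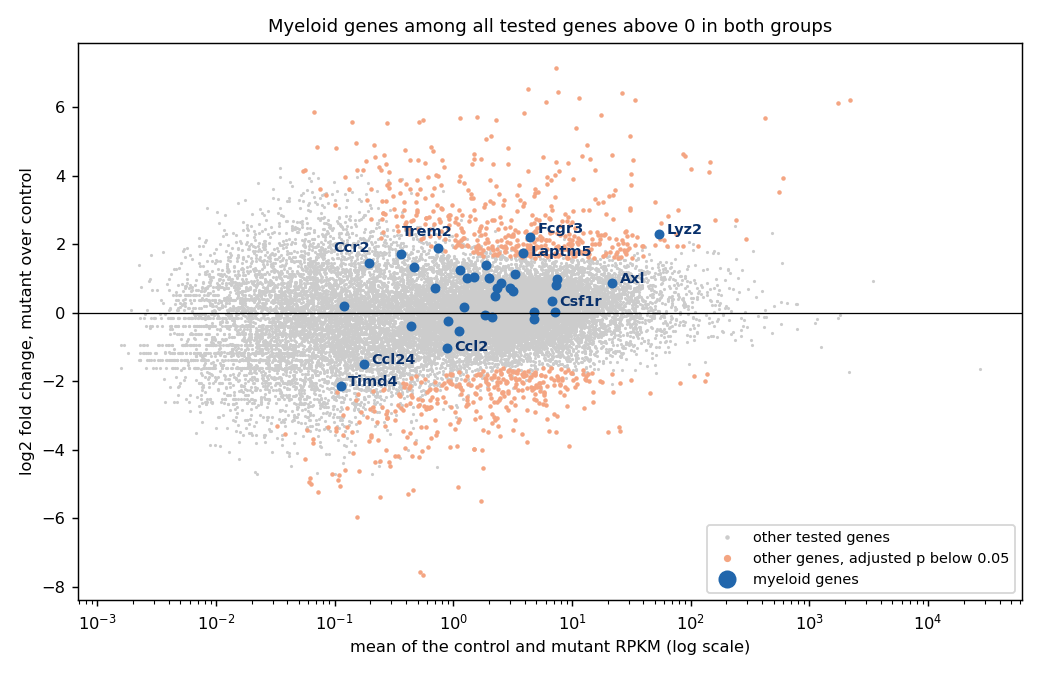
log2 fold change, mutant over control (vertical axis), against the mean of the 2 RPKM values (horizontal axis, log scale) for all tested genes above 0 in both groups, with the myeloid genes in blue and other genes with an adjusted p below 0.05 in orange. Lyz2, Fcgr3 and Laptm5 lie in the orange zone above the centre, where the smallest fold of any called row was 3.03, and Ccr2 and Timd4 lie at low levels inside the grey.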

How the data were processed

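RNA sequencing of 4 ventricle samples, 2 per group by the labels, was read from 1 table. Per the file headers its levels are RPKM, 1 per group, and the authors added the fold (ratio of mutant to control), the log2 of that fold, p-values and adjusted p-values. Bowtie 0.12.9, DESeq and mm9 appear in the submitters' processing notes, with neither a version of DESeq nor the step each served. Annotation, counting and strand use: not given in the sources used here.

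A row was called at a deposited adjusted p below 0.05, and 24454 of 36814 rows carried one. For the 37 genes the deposited fold was within 0.51% of the ratio of their RPKM values, and a recomputed Benjamini-Hochberg adjustment was within 0.593% of the deposited one. Fold intervals at 95% came from the log2 value and the error that the deposited p implies, and are approximate because that p is not from a normal test. Depth is not stated. The worth of 1 read was taken from steps in the RPKM of small RNA genes, and reads from the longest protein coding transcript of GENCODE M21, so both hold only if RPKM was scaled by mapped reads. Medians, sums and ratios have no test. All listed genes with a row are named, and of each other list the called genes and the 2 with the highest mean RPKM. Some genes that this rule would name are not reported here. The members and lists were chosen with earlier results of these data known. Alternatives were other thresholds, an adjustment over rows at a mean of 1 RPKM, pseudocounts of 0.1 and 1, and other scalings. The interval script recovered the errors set in simulated normal data, which checks its arithmetic and not how well the intervals hold for the deposited p. Promoters came from RefSeq on GRCm38.p6 and were used for sequence only. Python 3.11.15, pandas 2.3.3, numpy 2.4.6, scipy 1.17.1 and biopython 1.88 were used.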

Additional observations from a re-analysis of the deposited data

How the results depend on the processing

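The 3 genes called higher were the same with the adjustment over the 11292 rows at a mean of at least 1 RPKM. At a threshold of 0.01 Laptm5 was lost, leaving 2, and at 0.1 Trem2 was added, giving 4. None was called lower under these settings. The median log2 fold change of the myeloid genes ran from 0.40 (pseudocount of 1) to 0.80 (mean of at least 1 RPKM), and that of the resident list from 0.51 to 0.80. Without the 5 genes of each list that other cells share, alternatives added after seeing the data, the resident median of 0.80 was 0.63 and the recruited median of 0.80 was 0.20. The recruited median was also 0.33 and 0.22 with pseudocounts of 0.1 and 1. Ccr2 was 2.16 times as high per unit of Csf1r in mutant, 1.86 times per the sum of Emr1, Cd68, Csf1r and Fcer1g, and 1.65 times without Csf1r in that sum. No paired analysis was possible because the table gives 1 value per group, and for the same reason no animal could be left out and no other count model was run. Low levels are limited by the shallower control group.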

Other observations

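Dendritic, mast cell and platelet genes, which share some myeloid markers, were measured beside the macrophage genes. Of 7 dendritic cell genes 2 stood above control and none was called, with a median log2 fold change of -0.18. Zbtb46, a factor of classical dendritic cells that endothelial cells also express, was listed at 1.90 (control) and 1.02 (mutant) RPKM, and Clec9a, a receptor of cross-presenting dendritic cells, at 0.666 and 0.645 RPKM. The 6 mast cell genes summed to 1.71 (control) and 1.97 (mutant) RPKM with none called, although Kit, which mast cells carry, fell. The 7 platelet genes summed to 10.9 and 13 RPKM, most of it Pf4, and none was called.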
